A study of Drosophila melanogaster with 3 samples.

Results

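The 84 genes described here encode subunits of the mitochondrial respiratory chain and of ATP synthase, or close copies of such subunits. They were chosen by symbol, with no measured value in the rule, though earlier results of these data were known. The rule took protein-coding genes in the nuclear genome whose symbol begins with ND-, with COX and a digit, with UQCR- or with ATPsyn, or is SdhA, SdhB, SdhC or SdhD. They make up 84 of 13945 protein-coding genes in Ensembl release 115. Binding of Scute, a proneural basic helix-loop-helix transcription factor, was mapped across them by ChIP-seq. The embryos were Drosophila melanogaster, 0 to 14 h old and of mixed sex. They came from a line stably carrying sc fused at its C-terminus to GFP, and the fused protein was precipitated with an antibody to GFP. The 3 biological replicates, all of that line, form a single group, so nothing is compared between conditions, and untagged chromatin was not analysed here. Since whole embryos were used, strong occupancy in few cells and weak occupancy in many cannot be told apart. Region lists hold no level of sc or of any cell type marker, so the label could not be checked against expression.

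The respiratory chain sits in the inner mitochondrial membrane. Complex I takes electrons from NADH and complex II from succinate, complex III passes them to cytochrome c, and complex IV hands them to oxygen. Complexes I, III and IV pump protons, and ATP synthase, also called complex V, uses the proton gradient to make ATP. The genes are active in nearly every cell, and several in Drosophila have duplicates that are mainly known from testis. Scute itself pairs with Daughterless and is known for making neural precursors.

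A thresholded region is one of the 3612 regions that passed the authors' reproducibility threshold. Of the genes with such a summit close to their start, 5 share a short intergenic gap with an oppositely transcribed neighbour, with the summit inside it. These gaps are printed because they show the sequence between the starts, in which the summits lie. Each runs 5′ to 3′ on the strand of the first-named gene, from the base after the neighbour's start to the base before that gene's start, in dm6 coordinates. Capitals mark matches on either strand to the motifs described further on, namely CAGCTG in the gap of ND-51 and CATATG in that of ND-42. The gaps of ND-42, ND-SGDH and ND-MNLL hold the NRG core, and those of ND-42 and ND-SGDH hold TATAAA as well. GATAAG stands in those of ATPsynE and ND-MNLL, in the second of them overlapping TATCGATA.
ND-42 and Cchl, chr3R:22027481-22027708, plus strand: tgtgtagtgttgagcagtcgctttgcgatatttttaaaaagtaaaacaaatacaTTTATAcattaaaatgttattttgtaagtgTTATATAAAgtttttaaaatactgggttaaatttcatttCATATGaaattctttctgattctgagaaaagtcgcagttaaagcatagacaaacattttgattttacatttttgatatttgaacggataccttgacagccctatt
ND-SGDH and RhoGAP68F, chr3L:12138585-12138867, minus strand: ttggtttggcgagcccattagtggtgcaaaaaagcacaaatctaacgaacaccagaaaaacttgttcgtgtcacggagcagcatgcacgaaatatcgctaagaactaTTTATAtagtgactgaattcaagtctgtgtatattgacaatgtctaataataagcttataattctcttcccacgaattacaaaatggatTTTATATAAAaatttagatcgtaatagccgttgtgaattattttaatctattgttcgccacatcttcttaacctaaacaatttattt
ATPsynE and Afti, chr3R:14326690-14326946, plus strand: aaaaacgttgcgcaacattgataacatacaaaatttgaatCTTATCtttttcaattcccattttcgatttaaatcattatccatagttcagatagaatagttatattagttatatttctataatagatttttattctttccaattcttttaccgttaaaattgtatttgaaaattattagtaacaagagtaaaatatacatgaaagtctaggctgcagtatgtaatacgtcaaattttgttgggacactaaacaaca
ND-MNLL and p115, chrX:7893799-7894030, minus strand: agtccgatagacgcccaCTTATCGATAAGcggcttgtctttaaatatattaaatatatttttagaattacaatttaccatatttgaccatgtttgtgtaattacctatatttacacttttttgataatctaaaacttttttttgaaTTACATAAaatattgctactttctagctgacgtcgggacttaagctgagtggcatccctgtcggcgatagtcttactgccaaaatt
ND-51 and CG13994, chr2L:6062758-6062988, minus strand: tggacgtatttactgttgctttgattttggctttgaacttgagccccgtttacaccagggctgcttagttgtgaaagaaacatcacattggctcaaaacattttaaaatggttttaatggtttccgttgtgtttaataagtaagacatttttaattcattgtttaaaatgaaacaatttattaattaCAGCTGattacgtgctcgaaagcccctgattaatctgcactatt
The gaps were 228, 283, 257, 232 and 231 bp long in that order, and none contained an annotated exon base. Their GC content was 26.8%, 32.9%, 25.3%, 32.3% and 33.8%. The summits lay at base 21 in the gap of ND-42, at base 205 in that of ND-SGDH, at base 245 in that of ATPsynE, at base 156 in that of ND-MNLL and at base 196 in that of ND-51, counted from the left. The ND-42 summit was thus close to the start of Cchl, which encodes cytochrome c heme lyase, and the ATPsynE summit close to that of ATPsynE.

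With upstream sequence counted, the share of respiratory chain and ATP synthase genes with a thresholded Scute region was below that of protein-coding genes in general, by no more than counting error. A thresholded summit lay in the gene body or within 2000 bp upstream, together called the territory, of 12 of 84 genes. That is 14.3% (95% Wilson interval 8.37 to 23.3, counting error over genes only), while 20.5% of all protein-coding genes were called in this way. The territories were short, with a median of 3097 bp among the respiratory genes and of 4166 bp among all genes. Among genes with a territory no longer than the longest respiratory one, of 43305 bp, the share called was 19.3%. Among genes with a territory up to 5705 bp, the 90th percentile of the respiratory genes, 11 of 75 respiratory genes were called (14.7%, interval 8.39 to 24.4), against 13.4% of all such genes. In gene bodies alone, without upstream sequence, a thresholded summit lay in 2 respiratory genes (2.38%, interval 0.655 to 8.27), against 9.24% of all genes, which is outside the interval. The part of gene body length in this was not tested.

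Summits near gene starts were counted apart. A thresholded summit lay within 500 bp of an annotated start of 9 respiratory genes (10.7%, interval 5.74 to 19.1), and of 12.4% of all genes. In the full pooled list of 30000 regions, 54 respiratory territories held a summit (64.3%, interval 53.6 to 73.7), against 59.9% of all territories. Regions with a q-value under 5% in the pooled list reached 24 respiratory genes (28.6%, interval 20.0 to 39.0), against 29.6% of all genes. Within 500 bp of a start they reached 18 respiratory genes (21.4%, interval 14.0 to 31.3), against 19.0% of all genes. Each of these intervals contains the share of all genes.

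**Figure D1:**
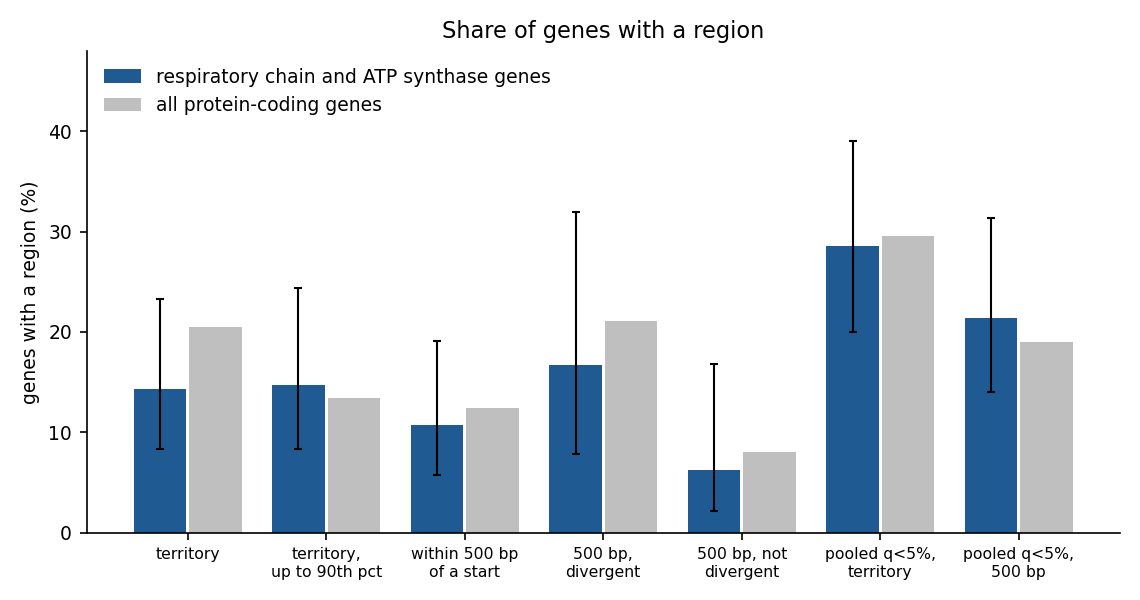
Share of genes with a region (%) among respiratory chain and ATP synthase genes (blue) and all protein-coding genes (grey), for thresholded regions in the territory, in territories up to the 90th percentile of the respiratory genes, within 500 bp of a start, the same for genes with and without a divergent neighbour, and for pooled regions with a q-value under 5%. Bars on blue are 95% Wilson intervals, and each contains the grey value beside it.

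The replicates were also taken singly, a count added after the values were seen. Among the 3612 highest regions of each replicate, 14, 12 and 14 respiratory territories held a summit in replicates 1, 2 and 3. Those are shares of 16.7%, 14.3% and 16.7%, against 21.6%, 20.8% and 20.2% of all genes. The mean share was 15.9% ± 1.39 for respiratory genes and 20.9% ± 0.70 for all genes (SD, n = 3 each). The respiratory share was the lower in every replicate, but an SD over replicates leaves out counting error over genes. The Wilson intervals of the respiratory shares, 10.2 to 26.1, 8.37 to 23.3 and 10.2 to 26.1, each contained the share of all genes. Territory length was not limited in this count. For thresholded regions in territories up to 5705 bp, the shares were 14.7% and 13.4%, as given above. With regions under a q-value of 5%, 19, 25 and 27 respiratory genes were reached, or 22.6%, 29.8% and 32.1%, against 26.0%, 30.2% and 29.1% of all genes. The mean share was then 28.2% ± 4.96 for respiratory genes and 28.4% ± 2.18 for all genes (SD, n = 3 each), and in replicate 3 the respiratory share was the higher.

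By complex, summits were found at subunits of complexes I, IV and V. Complex I, the NADH dehydrogenase, had 7 of 40 genes called (17.5%), all 7 within 500 bp of a start, against 20.5% of all genes in territory and 12.4% near a start. Complex IV, cytochrome c oxidase, had 2 of 16 (12.5%), and ATP synthase had 3 of 15 (20.0%). Complex II, succinate dehydrogenase, had 0 of 4 genes called, and complex III, the ubiquinol-cytochrome c reductase, had 0 of 9. Taking 3 counts as the limit for a count of 0, these allow shares of up to 75.0% and 33.3%. Such limits are rough at numbers this small and are not Wilson intervals. Numbers this small separate the complexes neither from each other nor from the 20.5% of all genes.

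**Figure D2:**
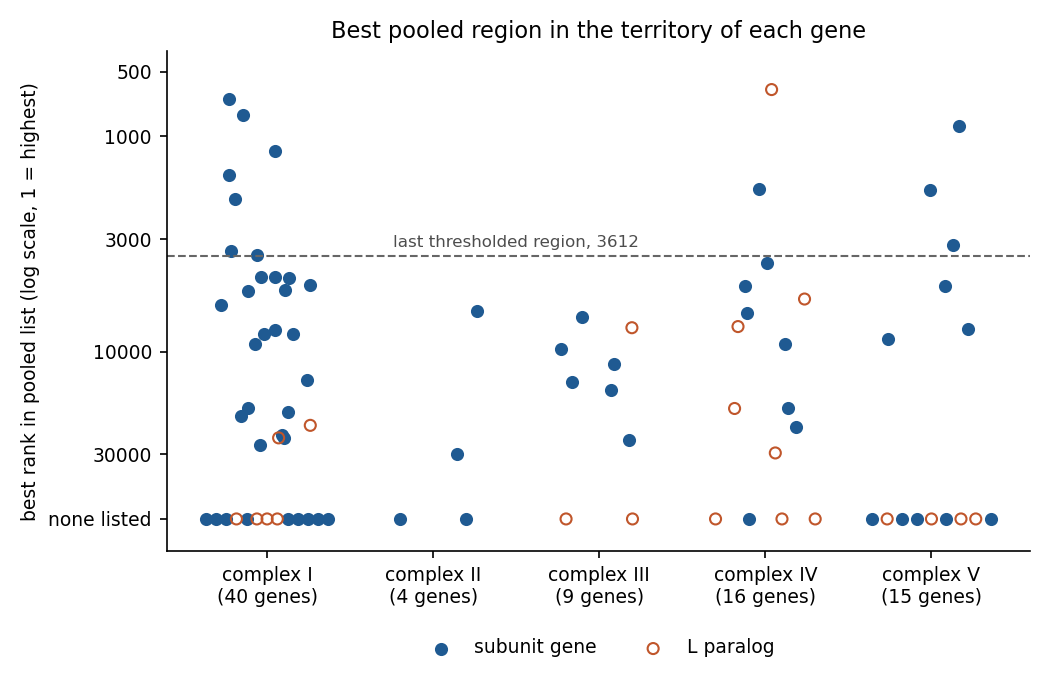
Rank of the best pooled region in the territory of each respiratory chain and ATP synthase gene (log scale, 1 is the highest signal), by complex, with filled points for subunit genes and open points for L paralogs. The dashed line marks rank 3612, the last thresholded region, above which 12 genes lie, and the 30 genes with no pooled region are drawn at the bottom.

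Within the family, the duplicates were counted apart. The 21 L paralogs, recognised by a final L or L and digit in the symbol, are copies of subunit genes. ND-MNLL, which holds a thresholded summit, was left out of them because its last letters belong to the name of the subunit itself. A single L paralog, COX7AL2, held a thresholded summit (4.76%), against 11 of the 63 other genes (17.5%) and 20.5% of all protein-coding genes. In the pooled list at a q-value under 5% the numbers were 2 of 21 and 22 of 63, beside 29.6% of all genes, and for any pooled region 8 of 21 and 46 of 63, beside 59.9% of all genes. A start transcribed the opposite way lay within 1 kb upstream of 3 L paralogs (14.3%) and of 40 other genes (63.5%). The median territory was 2703 bp in L paralogs and 3178 bp in the others. The difference between both kinds of gene, and the part of neighbouring starts in it, was not tested.

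The complex I genes called span both arms of the enzyme. In the part that oxidises NADH lie ND-51, the flavin-binding subunit, and ND-24, an iron-sulfur subunit. ND-51 had a region at chr2L:6062578-6063007 with a pooled signal of 147 and a summit 36 bp upstream of the start. In replicates 1, 2 and 3 its signals were 49.0, 62.5 and 47.2, at ranks 3145, 3611 and 3777, so it stood at the edge of the highest 3612 everywhere. ND-24 had a region at chrX:17631956-17632385 with a pooled signal of 257 and a summit 82 bp inside the gene, in its 5′ UTR. Its signals were 103, 76.5 and 61.1, at ranks 932, 2575 and 2584, and replicate 1 stood well above the others. Signals are the authors' values on a scale of each list, so levels are compared between replicates by rank.

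ND-42 is an accessory subunit on the matrix side, and the others of complex I are small accessory subunits of the membrane arm, by their mammalian counterparts. The ND-42 region, at chr3R:22027286-22027715, had a pooled signal of 303, and in the replicates 81.5, 117 and 109 at ranks 1407, 1237 and 1009. Its summit lay 208 bp upstream of ND-42 and 21 bp from the start of Cchl. ND-SGDH had a region at chr3L:12138448-12138877 with a pooled signal of 219. Its replicate signals were 77.9, 87.9 and 45.1 at ranks 1504, 2044 and 4055, so it was high in replicates 1 and 2 and fell outside the highest 3612 in replicate 3. ND-MNLL, with a region at chrX:7893660-7894089 and a pooled signal of 153, had 50.4, 53.4 and 50.6 at ranks 2992, 4682 and 3404. Its summit lay 77 bp upstream of a start that the annotation gives also to CG45089, so the genes cannot be told apart there.

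The strongest complex I regions lay between pairs of genes with alternative starts. ND-ASHI had a region at chrX:6679278-6679486 of pooled signal 416, with 109, 174 and 126 in the replicates at ranks 839, 596 and 762. The summit lay 283 bp upstream of ND-ASHI and 239 bp from a start of Fum1, which encodes the citric acid cycle enzyme fumarase, inside an intron of Fum1. ND-MWFE had a region at chr2R:13158425-13158589 of pooled signal 377, with 126, 147 and 105 at ranks 640, 827 and 1063. Its summit lay 140 bp upstream of ND-MWFE and 81 bp from a start of TppII, a peptidase gene. Both summits lay nearer to the neighbour's start than to the respiratory one.

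In complex IV, the highest-ranked region of the whole family belonged to COX7AL2, an L paralog of the COX7A subunit. It lay at chr2L:2199254-2199470, 1397 bp upstream of the start and outside any gene, with a pooled signal of 440. In the replicates the signals were 148, 146 and 159 at ranks 453, 841 and 475, high in all 3. COX7AL2 held 3 further thresholded regions: summits 313 and 513 bp past the start in the 5′ UTR and 1252 bp past it in an intron, at set ranks 2914, 1858 and 3137. The region at 313 bp ranked 7193, 1411 and 25632 in the replicates, so it was high in replicate 2 alone. The region at 513 bp, 200 bp away, ranked 2119 in replicate 1 and 2675 in replicate 3, and no region of replicate 2 was matched to it. COX7C, a complex IV subunit, had its region at chr2R:10046167-10046596, 1971 bp upstream of its start in an intron of the neighbouring gene oys. Its pooled signal was 236, with 73.9, 86.2 and 81.1 at ranks 1656, 2105 and 1631.

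The ATP synthase genes called encode membrane and stalk subunits. ATPsynE, a small subunit of the membrane part, had a region at chr3R:14326719-14327148 with a pooled signal of 235 and a summit 13 bp upstream of its start. The replicates gave 77.6, 73.1 and 86.9 at ranks 1514, 2772 and 1454. ATPsynCF6 and ATPsynD, both of the peripheral stalk, had summits far from their starts and inside other genes. The ATPsynCF6 region, at chr3R:23356903-23357332 with a pooled signal of 353, lay 1054 bp upstream in an intron of Sec13, with replicate signals of 134, 127 and 91.7 at ranks 569, 1073 and 1335. The ATPsynD region, at chr3R:19093252-19093681 with a pooled signal of 159, lay 1533 bp upstream in an intron of cdi, with 43.4, 50.7 and 63.1 at ranks 3875, 5132 and 2462. It passed the authors' threshold but stood among the highest 3612 of replicate 3 alone.

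**Figure D3:**
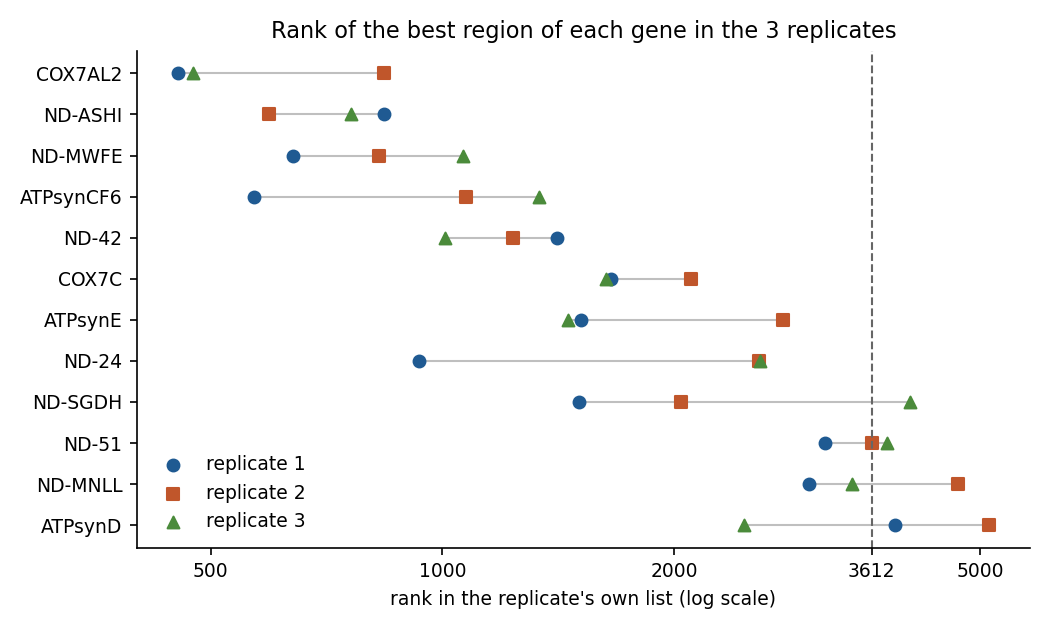
Rank of the best thresholded region of each of the 12 genes in the list of each replicate (log scale), with genes ordered by mean rank from top to bottom. The 8 genes from COX7AL2 to ND-24 stay left of the dashed line at 3612 in every replicate, and the 4 below them cross it in at least 1 replicate.

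The regions of the family were set beside those of all called genes. The best region of a called gene had a median rank of 1639 for respiratory genes and 1381 for all genes, with median signals of 247 and 274. The 15 respiratory regions split into 6 intergenic, 6 intronic and 3 in a 5′ UTR. The matching split over all thresholded regions is not given here. Of the 15, 10 had a summit among the 3612 highest of every replicate within 250 bp (66.7%), as had 2409 of the 3612 thresholded regions (66.7%). Another 3 had one in 2 replicates and 2 in a single replicate. The 10 include the COX7AL2 regions at 313 and 513 bp, whose neighbouring summits share the same replicate summits. When each replicate region was matched to its nearest thresholded summit alone, a rule added after the values were seen, 8 of the 15 remained (53.3%), against 2256 of all thresholded regions (62.5%). Within 100 bp the shares were 53.3% and 58.3%. The own start was the nearest gene start to the best region in 7 of 12 respiratory genes (58.3%) and in 1736 of 2858 called genes overall (60.7%). Territories of other genes held 11 of the 15 regions too, and 17 other genes were involved, so most of these summits cannot be given to a respiratory gene alone. How often regions are shared over all thresholded regions is not given here, so such sharing cannot be called particular to the family. The nearest thresholded summit lay at a median of 174 bp from the own start in the 12 respiratory genes and 297 bp in all called genes. Only summits within the territory were counted. Territories were shorter in respiratory genes (median 3097 bp) than in all genes (4166 bp), and the part of this in the distances was not tested. The respiratory median was 245.5 bp over regions present in replicates 2 and 3.

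Most genes with a summit near a start had an oppositely transcribed neighbour, both in the family and over all genes. By outermost 5′ ends this was so for 6 of the 9 respiratory genes (66.7%), against 56.9% of all genes so called. By outermost 5′ ends, 36 respiratory genes (42.9%) had an oppositely transcribed gene starting within 1 kb upstream, as did 33.3% of all genes. Of respiratory genes with such a neighbour, 6 of 36 had a thresholded summit within 500 bp of a start (16.7%, interval 7.87 to 31.9), against 21.1% of all such genes. Without one, the count was 3 of 48 (6.25%, interval 2.15 to 16.8), against 8.0% of all such genes. Both in the family and in the genome the share was thus higher at divergent starts. Counting any annotated start, which was added after the values were seen, 43 respiratory genes (51.2%) had a divergent neighbour, against 36.2% of all genes. Then 18.6% of divergent respiratory genes were called, against 21.5% of all divergent genes, and 1 of the 41 others, against 7.19% of all others. Of the respiratory genes so called, 8 had a divergent neighbour (88.9%), against 63.0% of all genes so called. These differences rest on few genes and were not tested.

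The 8 divergent pairs with a summit had gaps of 42 to 522 bp, and in 7 of them the summit lay between both starts. The exception was ND-24, whose start lies 42 bp from that of corolla and whose summit fell inside ND-24. In 5 of the 8 the summit was nearer to the respiratory gene, and in those of ND-ASHI, ND-MWFE and ND-42 to the neighbour. Among the neighbours, Fum1 and Cchl also encode mitochondrial proteins.

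**Figure D4:**
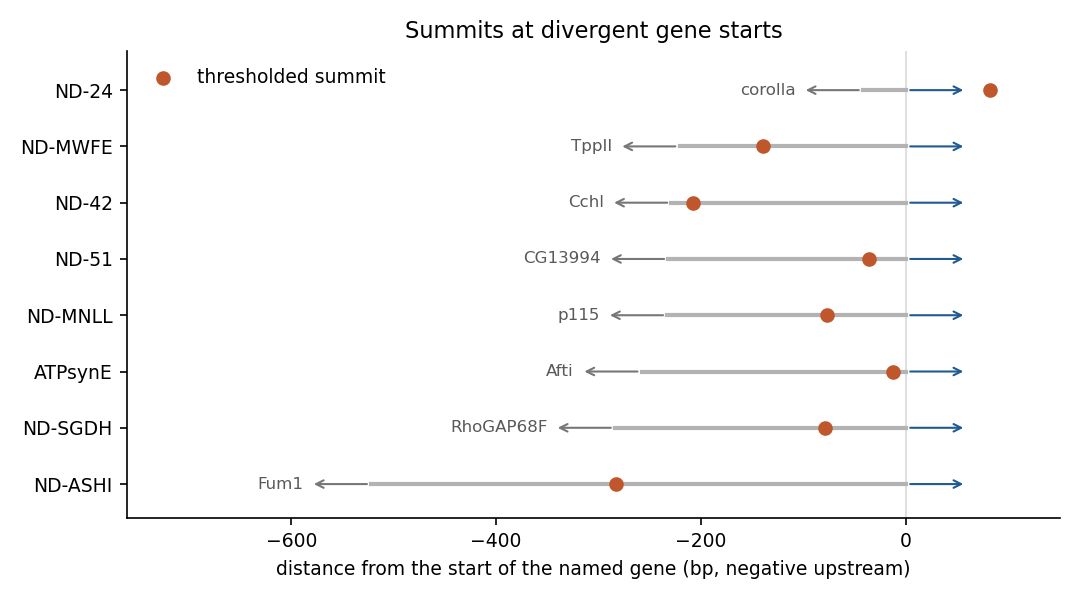
Position of the thresholded summit (orange) relative to the start of each of 8 respiratory genes with a divergent neighbour, in bp, negative upstream. Grey lines span the gap between both starts and arrows show the direction of transcription. The summits lie between the starts in 7 of the 8.

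The motif of the achaete-scute proteins and Daughterless was absent from these windows. Within 100 bp of the 15 summits, 0 held GCAGCTG or GCAGGTG on either strand, while 4.62% of all thresholded windows held one. With 3 counts again taken as the limit, this allows a share of up to 20.0%. The shorter E-boxes were present: CAGCTG, which GCAGCTG contains, in 2 of 15 windows (13.3%) against 7.86% of all windows, at ND-42 and ND-51. CAGGTG stood in 1 window, at COX7C, against 4.93% of all, and CATATG in 2, at COX7C and at a region of COX7AL2, against 8.44% of all. With 15 windows, shares of this size cannot be told from those of the set.

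Elements known from promoters were also sought. The NRG core (spelled TTACGTAA, or with a changed middle TTACATAA, or otherwise TTATATAA), known from nuclear genes of respiration in Drosophila, stood in 3 of 15 windows (20.0%), at ND-42, ND-SGDH and ND-MNLL, against 5.34% of all thresholded windows. TTATATAA can overlap TATAAA, which stood in 8 windows (53.3%) against 38.7% of all. GATAAG stood in 2 windows, at ND-MWFE and COX7C, against 11.0% of all. TATCGATA, the DNA replication-related element or DRE, GGTCACAC, the core of Ohler motif 1, and GAGAGAG stood in 0 of 15, against 1.80%, 0.997% and 3.57% of all. The longer palindrome bound by vertebrate NRF-1 stood in 0, against 0.111% of all. Matches are letters in a window and not shown sites. With 15 windows the numbers are small, and no difference was tested.

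In the promoters, taken as 250 bp before to 50 bp after each start, the widest gap in share between respiratory and all genes, of the motifs sought, was that of Ohler motif 1. GGTCACAC stood in 16 of 84 (19.0%), against 7.70% of all promoters. CAGCTG stood in 20 (23.8%), against 17.7%, and GCAGCTG or GCAGGTG in 8 (9.52%), against 8.71%. The NRG core stood in 5 promoters (5.95%), against 5.18% of all. TATCGATA stood in 9 (10.7%) against 9.36%, GATAAG in 15 (17.9%) against 18.9%, and TATAAA in 45 (53.6%) against 45.8%. GAGAGAG stood in 1 (1.19%) against 5.87%, CAGGTG and CATATG each in 5 (5.95%) against 9.32% and 7.82%, and the NRF-1 palindrome in 0 against 0.208%. GC content was 35.1% ± 6.55 over respiratory promoters (SD, n = 84) and 39.1% ± 7.74 over all promoters. The part of base composition in these shares was not tested.

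**Figure D5:**
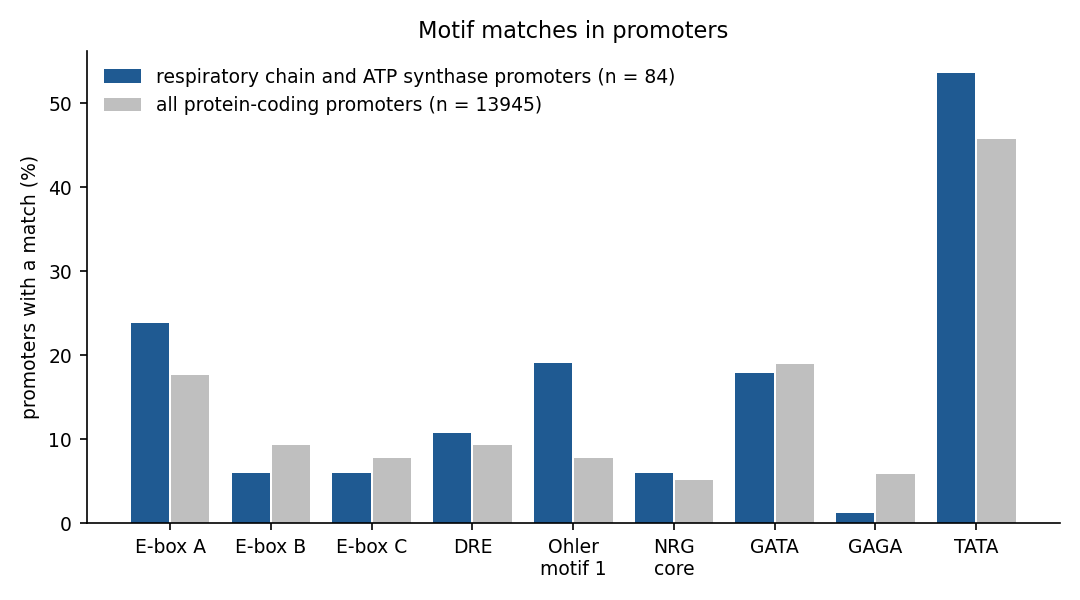
Share of promoters (%, 250 bp before to 50 bp after the start) with a match on either strand, for respiratory chain and ATP synthase genes (blue) and all protein-coding genes (grey). E-box A is CAGCTG, E-box B is CAGGTG and E-box C is CATATG. The share with Ohler motif 1 is 19.0% in blue and 7.70% in grey.

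These promoter motifs were set beside the summits. Of the 16 respiratory promoters with Ohler motif 1, only that of ND-MWFE had a thresholded summit within 500 bp, while over all genes the share was 15.3% with the motif and 12.1% without. Of the 5 with an NRG core, 3 had one, those of ND-42, ND-SGDH and ND-MNLL, and those of ND-30 and ND-49 did not. These are the same 3 genes as in the summit windows, so both counts rest on the same genes. The numbers are small, several motifs were sought, and a link was not tested. Over all genes the share was 14.8% with an NRG core and 12.2% without. With CAGCTG, 2 of 20 respiratory promoters had a summit, and over all genes 16.5% with the motif and 11.5% without. With GCAGCTG or GCAGGTG, 0 of 8 respiratory promoters had one, and over all genes 13.3% with and 12.3% without. For GATAAG the count was 4 of 15, for CATATG 2 of 5 and for TATAAA 5 of 45. Over all genes with these motifs the shares were 10.1%, 10.9% and 13.1%. For TATCGATA it was 1 of 9, for CAGGTG 0 of 5 and for GAGAGAG 1 of 1, against 15.9%, 10.3% and 17.2% of all genes with them. GC content in the summit windows was 34.0% ± 8.52 for respiratory genes (SD, n = 15) and 34.7% ± 6.90 for all thresholded regions.

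Below the threshold, 42 further genes had a pooled region, 22 of them within 500 bp of the start, and 30 genes had none. A q-value under 5% with no thresholded summit was met by 12 of the 42. Matching shares over all genes are not given for these counts. With called genes included, 64.3% of respiratory genes had a pooled region, against 59.9% of all genes. At a q-value under 5% the shares were 28.6% and 29.6%. The genes just inside the threshold were ND-51 at rank 3567 and ND-MNLL at 3405, and those just outside were COX8 at pooled rank 3877, ND-B16.6 at 4487 and ND-15 at 4524. COX8, a complex IV subunit, had its summit 89 bp upstream of the start, between it and VhaM9.7-b, a subunit gene of the vacuolar proton pump. Its ranks were 3203, 11528 and 2997, so replicate 2 stood far lower. ND-B16.6, an accessory complex I subunit, ranked 3712, 5558 and 8646, with its pooled summit 1846 bp upstream. ND-15, with a territory of 43305 bp, ranked 7066, 2833 and 5829, and its pooled summit lay 3157 bp past the start. Replicate ranks of genes without a thresholded summit are those of the best region anywhere in the territory, not matched to the pooled summit.

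Counted by replicate, 14 genes had a region with a q-value under 5% in all 3, 9 in 2, 11 in 1 and 50 in none. The matching counts over all genes are not given here. In replicates 1, 2 and 3 taken singly, the share was 22.6%, 29.8% and 32.1%, against 26.0%, 30.2% and 29.1% of all genes. The 14 were the 12 with a thresholded summit plus ND-39, an accessory complex I subunit, and SdhC. ND-39 ranked 3027, 4322 and 3642. SdhC, a membrane anchor of succinate dehydrogenase, had a pooled signal of 96.4 and a pooled q-value of 4.75%. Its ranks in the replicates were 4231, 5446 and 3890, and its pooled summit lay 63 bp upstream, between it and Tctp. SdhA, the flavoprotein of that enzyme, had no pooled region but ranked 6555, 7405 and 5280 in the replicates. Single lists thus held regions in a territory where the pooled list had none. Whether the replicate regions of SdhA lie at the same place was not examined. SdhD had pooled rank 29829 and was listed in replicate 1 alone, at 17809, and SdhB had no region in any list. The best of complex III was UQCR-Q at pooled rank 6888.

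Genes that act in the same pathway under other symbols include cytochrome c, assembly factors and subunits with older names. Of 16 such genes, 5 held a thresholded summit in their territory (31.2%), 3 of them within 500 bp of a start, against 20.5% and 12.4% of all genes. Cyt-c-d, the cytochrome c gene known from testis, had the highest rank, 134, with 131, 142 and 133 in the replicates. CIA30, an assembly factor of complex I, was at 340, with 254, 499 and 311, and Cyt-c-p, the general cytochrome c gene, was at 939, with 1448, 942 and 928. The gene blw, which encodes the alpha subunit of ATP synthase, was at 1071, with 841, 1484 and 1049. RFeSP, the Rieske subunit of complex III, was at 2528, with 4463, 2084 and 2679. The list is short, and its difference from the family and from all genes was not tested.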

How the data were processed

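Scute ChIP-seq regions of 3 biological replicates were used, in dm6. Per the labels, chromatin was sonicated and precipitated with anti-GFP. The authors deposited for each region a signal, on a scale of its own list, a −log10 q-value and a summit position given as another number, the offset from the region's start. They gave lists per replicate, a pooled list, and a thresholded set that holds the 3612 highest pooled signals. The aligner is not given in the sources used here, nor the peak caller. Depth is unknown and the control was not analysed here, so intervals cover counting error over genes only.

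Summits were assigned to Ensembl release 115 genes on Release 6 sequence, on the 6 nuclear arms, with 1-based positions. Replicate ranks came from the highest region whose nearest thresholded summit was within 250 bp. For genes without a thresholded summit they came from the highest region anywhere in the territory. A region was found in a replicate when a summit among its 3612 highest lay within 250 bp. Motifs were counted on both strands within 100 bp of summits. Every called gene was named, with the next genes below the threshold. No p-value was computed. Members and lists were chosen with earlier results of these data known. Scripts used Python 3.11.15, pandas 2.3.3, numpy 2.4.6 and scipy 1.17.1, and were tested on simulated data. The rule for a region found in a replicate was chosen after seeing the data, and a stricter rule is given beside it. Alternatives are listed in the closing section.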

Additional observations from a re-analysis of the deposited data

How the results depend on the processing

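The count of 12 respiratory genes with a thresholded summit moved with the definition of a territory and with the threshold. It was 2 (2.38%, interval 0.655 to 8.27, against 9.24% of all genes) with the gene body alone, the only setting run whose interval left out the share of all genes, 32 (38.1%, against 36.2%) with 5 kb on both sides, and 24 (28.6%, against 29.6%) with pooled regions under a q-value of 5%. It was 8 with the nearest start (9.52%, against 12.6%) and with the upper 50% of regions by signal (9.52%, against 12.8%), 14 with any overlapping base (16.7%, against 21.2%) and 11 without L paralogs (17.5%, against 20.5%). Single replicates, added after seeing the data, gave 12 to 14. The 9 genes with a summit within 500 bp of a start became 5 (5.95%, against 7.49%) with the upper 50% of regions and 18 (21.4%, against 19.0%) at a pooled q-value under 5%. Counting those whose own start is nearest, also added after seeing the data, left 6 (7.14%, against 9.21%). The median distance of 174 bp became 245.5 bp with the upper 50% of regions.

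Leaving out each replicate in turn gave 8 to 10 genes by territory (9.52% to 11.9%, against 16.3% to 16.4% of all genes), 6 to 8 near a start (7.14% to 9.52%, against 9.53% to 9.8%), 10 to 12 regions found in all remaining replicates, a median distance of 174 to 245.5 bp and 0 windows with GCAGCTG or GCAGGTG in every case. In these settings the thresholded set stayed the same, and a region was kept only if found among the highest of both remaining replicates. That rule is stricter than the main count. With replicate 1 left out, ND-SGDH and ND-51 were lost because they were not found in replicate 3. ND-MNLL and ATPsynD were lost because they were not found in replicate 2. Whether these genes depend on replicate 1 was thus not tested. No paired analysis was possible because the replicates form a single group. Read depth is not recorded in the lists, so whether genes without a region lacked occupancy or depth cannot be told apart, and no control was analysed here.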

Other observations

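In the citric acid cycle, which feeds electrons to the respiratory chain, 5 of 15 genes held a thresholded summit in their territory (33.3%), 3 of them within 500 bp of a start. Idh3g, a subunit of isocitrate dehydrogenase, was at rank 167 of the thresholded set and at 117, 192 and 206 in the replicates. The gene kdn, for citrate synthase, was at 842, with 684, 1011 and 1123, and mAcon1, for aconitase, at 1174, with 1065, 1147 and 1507. Ogdh, of the oxoglutarate dehydrogenase complex, was at 3077, with 1526, 4632 and 3372, and Fum1 shares the region of ND-ASHI.

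Among genes that maintain the mitochondrial genome or regulate mitochondrial number, 2 of 15 held a summit (13.3%), 1 of them near a start. These were mtSSB, which binds single-stranded mitochondrial DNA, at rank 831, with 1019, 746 and 929 in the replicates, and mtDNA-helicase at 2073, with 2213, 2374 and 2326. Beside these lists, 20.5% of all protein-coding genes held a thresholded summit in their territory and 12.4% within 500 bp of a start.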
